A study of Mus musculus with 15 samples.

Results

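M and E1 are clonal populations of 4T1, a mouse mammary carcinoma line, and their RNA was compared across all genes. The libraries were chosen by the population label, which gives 3 M and 3 E1 libraries, 6 of the 15 in the series. The other 9 libraries are 3 each of the parental 4T1 line and of the clones E2 and A. Cells of the parental line had been transfected with the pNLS-iRFP670 plasmid, which encodes a near-infrared fluorescent protein sent to the nucleus, and each clone was grown from a single cell. M and E1 therefore share the plasmid and the genotype labelled WT, and both were kept in G418, an antibiotic that selects for a resistance gene, until it was withdrawn for the culture that gave RNA. RNA was taken at 72 h and about 80% confluency. The 3 replicates are described as biological, but each population is 1 clone, so every difference below is between 2 clones and not between 2 kinds of cell.

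Carcinoma cells of epithelial origin hold to each other through adherens junctions, built on E-cadherin, and desmosomes, built on desmocollins and desmogleins. Transcription factors of the Snail, ZEB and Twist families repress junction genes, and TGFb, which signals through its receptors to Smad2 and Smad3, is a well-known inducer of these factors in mammary cells. Cells of 1 tumour line can also differ in the number of copies of a chromosome segment, and RNA levels of genes in such a segment often move with copy number. Only RNA was measured here.

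The M libraries held 23397818 to 36831801 counts and the E1 libraries 20143111 to 33141271. The unnamed identifier 100861531 alone held 37.8% to 44.7% of the counts in M and 39.7% to 44.1% in E1, and 7540672 to 14206491 counts fell outside the 6 genes with the most counts. Values are CPM, counts relative to library size, scaled to a total adjusted by the TMM method. Epithelial markers were present in both clones, with Epcam at 40.5, 57.6 and 41.8 CPM in M and 47.0, 44.6 and 45.4 in E1. The 24 leukocyte markers summed to 0.453 to 1.23 CPM in M and 0.568 to 1.33 in E1, and 16 of them, among them Cd3e, Itgam and Adgre1, had 0 counts in all 6 libraries. The 16 fibroblast markers summed to 57.8 to 121 CPM in M and 83.5 to 117 in E1, with Dcn, Lum and Thy1 at 0 counts and Gsn, a gelsolin gene that epithelial cells also express, holding most of the sum. The 16 endothelial markers summed to 14.2 to 18.7 CPM in M and 14.1 to 19.4 in E1, with Cdh5, Tie1 and Emcn at 0 counts.

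M replicate 2 lay closer to E1 than the other M libraries did. Its log CPM correlated at 0.953 and 0.959 with M replicates 1 and 3 and at 0.955 to 0.962 with the 3 E1 libraries, whereas M replicates 1 and 3 correlated at 0.954 with each other and at 0.936 to 0.950 with E1. Proliferation genes show the difference directly. Mki67, which encodes the proliferation antigen Ki-67, was at 39.3, 240 and 86.6 CPM in M replicates 1, 2 and 3 and at 178, 184 and 196 CPM in E1. Mki67 was chosen for mention after its values were seen. M replicate 2 also held 14206491 counts outside the 6 genes with the most counts, against 7657054 and 10651056 in M replicates 1 and 3. Whether this depth raised its correlations was not tested. Results that rest on this library are given with and without it.

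Of 12712 genes tested, 495 differed between the clones (3.89%): 309 were higher in M (2.43%) and 186 were lower (1.46%) at a Benjamini-Hochberg adjusted p under 0.05 in edgeR's quasi-likelihood test. With a difference of at least 2-fold as well, 230 genes remained (1.81%), of which 144 were higher (1.13%) and 86 lower (0.677%). The 3 libraries of 1 clone lay wholly above the 3 of the other for 2767 genes (21.8%), 1416 of them higher in M (11.1%) and 1351 lower (10.6%). The median log2 fold change of all genes was 0.00. The number of calls depended on single libraries: of 495 in all, 216 were made without E1 replicate 2, 210 without E1 replicate 3 and 222 without M replicate 3, but 824 without M replicate 2, of which 420 were among the 495. Without M replicate 2 the balance of directions also turned, with 395 genes higher and 429 lower, so that 47.9% of the calls were higher instead of 62.4%.

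**Figure D1:**
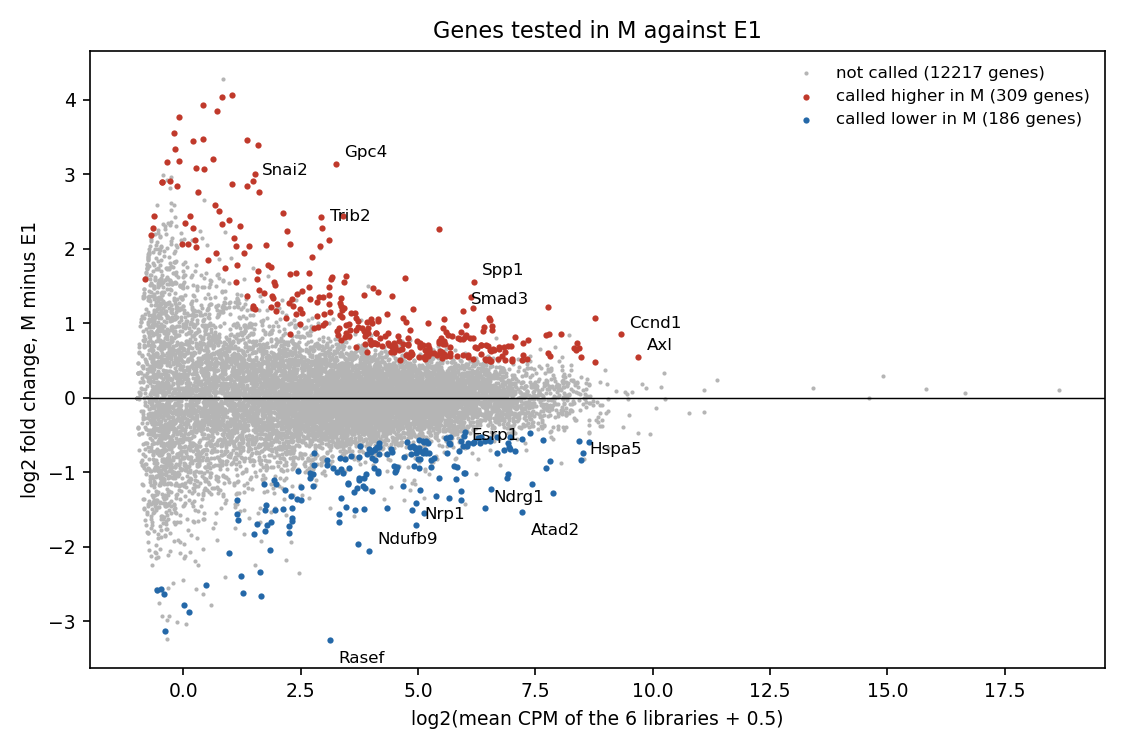
Each point is 1 of the 12712 genes tested, with its mean CPM over the 6 libraries on the x axis (log2, after adding 0.5) and its log2 fold change, M minus E1, on the y axis. Red points are the 309 genes called higher in M and blue points the 186 called lower. Gpc4 and Rasef stand at the outer edges among genes of at least 5 CPM in the higher clone.

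The largest increase among genes of at least 5 CPM in the higher clone was that of Gpc4 (chromosome X, 52051007 to 52164923, GRCm38), which encodes glypican 4, a heparan sulfate proteoglycan anchored to the cell surface. Gpc4 was at 17.1, 13.1 and 18.4 CPM in the M libraries and at 2.78, 1.39 and 1.07 in E1, a log2 fold change of 3.14 ± 0.421 (SE, n = 3 and 3) with an adjusted p of 2.66e-08. The clones did not overlap. E1 was the low population of the series for this gene: the parental line was at 13.2 ± 1.88 CPM (SD, n = 3), A at 23.6 ± 1.91 and E2 at 10.4 ± 2.21. In the comparison of E2 with E1, where 0.236% of all genes passed, Gpc4 passed too (log2 fold change 2.52, adjusted p = 5.47e-06). That comparison shares its E1 libraries with the comparison of M and E1.

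Trib2, a pseudokinase of the Tribbles family, was at 11.2, 12.8 and 11.9 CPM in M and 2.00, 2.69 and 2.55 in E1 (log2 fold change 2.29 ± 0.141, adjusted p = 3.6e-07). Calcrl, the receptor subunit for calcitonin gene-related peptide and adrenomedullin, was at 6.43, 8.55 and 4.82 CPM in M and 1.45, 0.976 and 0.946 in E1 (2.48 ± 0.302, adjusted p = 0.000157). Both genes separated the clones without overlap. Both were also called between E2 and E1, where Trib2 had a log2 fold change of 1.52 and Calcrl one of 1.77.

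Among the other large increases, Adamtsl3, an ADAMTS-like matrix glycoprotein, was at 21.8, 13 and 16.4 CPM in M and 4.60, 2.97 and 1.64 in E1 (2.44 ± 0.471, adjusted p = 0.000864). Loxl3, a lysyl oxidase that cross-links collagen and elastin, rose by 1.88 ± 0.247 on the log2 scale (adjusted p = 0.000112). Nptx1, a secreted neuronal pentraxin, was at 42.4, 94.6 and 76.3 CPM in M and 13.8, 15.8 and 14.7 in E1 (2.27 ± 0.35, adjusted p = 0.0147), and Hhip, which binds and dampens Hedgehog ligands, differed by 2.42 ± 0.475 (adjusted p = 0.0161). The calls of Nptx1 and Hhip were lost when E1 replicate 2, E1 replicate 3 or M replicate 3 was left out (adjusted p up to 0.0705 and 0.0786), and that of Nptx1 also without E1 replicate 1.

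The remaining genes among the 15 largest increases were Spn, Arhgap6, Plcl1, Slit2, Sema7a, Fosb, Creb3l2 and Plet1, with log2 fold changes from 1.64 to 2.23. Spn encodes sialophorin (CD43), a mucin-like surface protein best known from leukocytes. It was at 7.71, 10.2 and 2.78 CPM in M and 2.09, 1.16 and 0.946 in E1, while the leukocyte markers Cd3e, Itgam and Adgre1 had 0 counts. Creb3l2 is a membrane-bound transcription factor of the secretory pathway, and Fosb a subunit of AP-1. For all 15 genes the 3 M libraries lay above the 3 E1 libraries, which is part of the rule that chose them.

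**Figure D2:**
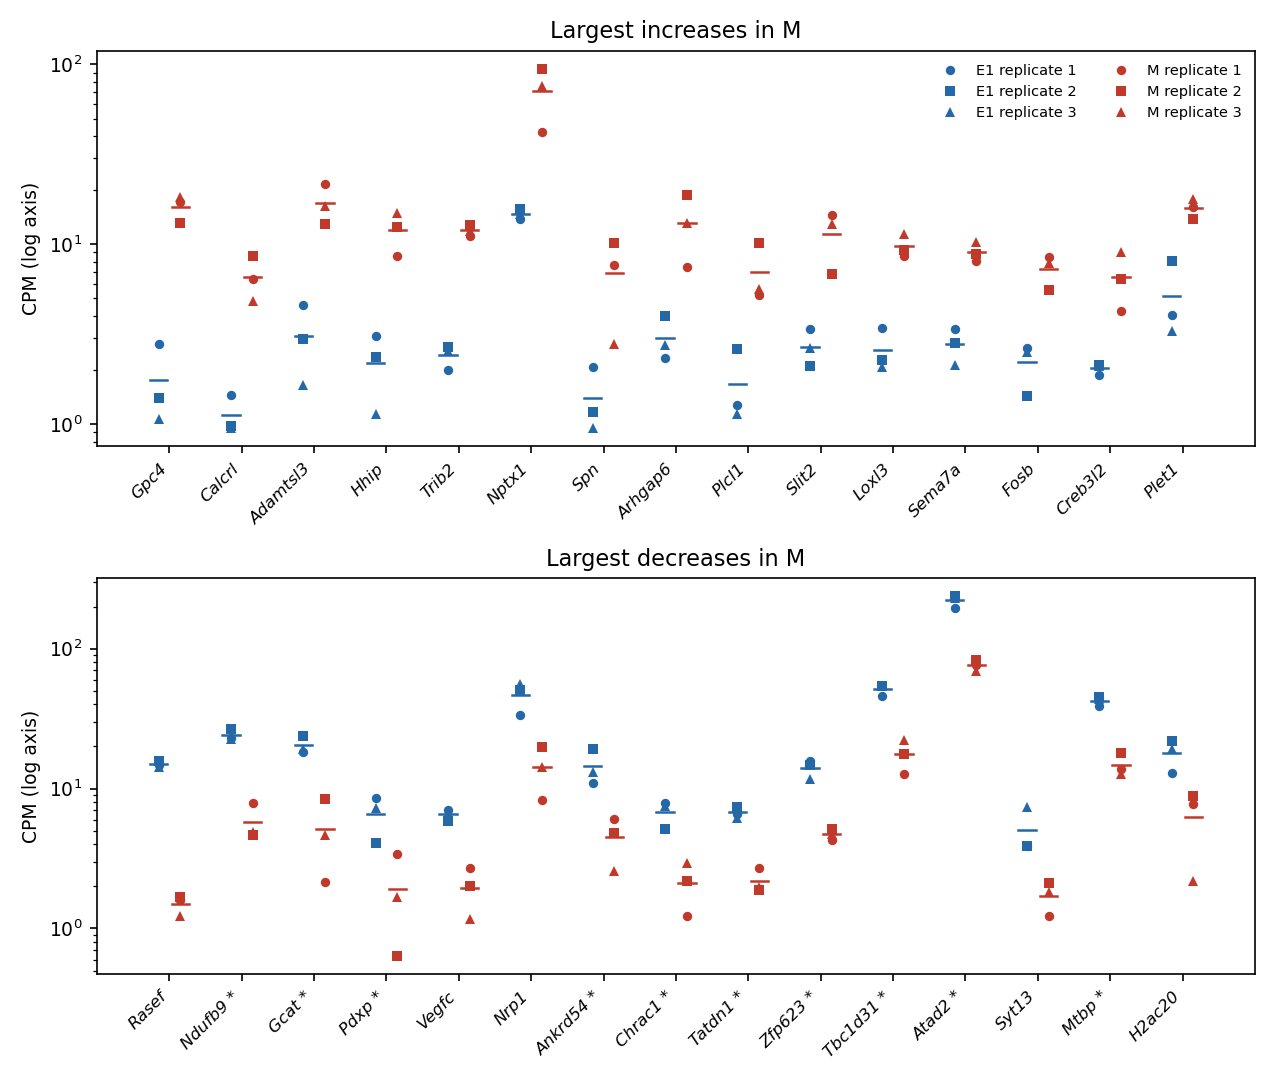
CPM on a log axis for the 15 largest increases (upper panel) and the 15 largest decreases (lower panel) in M among called genes of at least 5 CPM in the higher clone whose libraries did not overlap. Blue symbols are E1 and red symbols M, circles, squares and triangles are replicates 1, 2 and 3, bars are means, and an asterisk marks a gene on chromosome 15. Of the decreases, 10 of 15 lie on chromosome 15, and Rasef has the widest gap between the clones.

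Rasef (chromosome 4, 73714577 to 73791236), which encodes a Rab-type small GTPase with EF-hand domains, fell more than any other gene of at least 5 CPM. It was at 1.59, 1.69 and 1.23 CPM in M and 14.7, 15.8 and 14.2 in E1, a log2 fold change of -3.25 ± 0.141 with an adjusted p of 5.09e-09. M was the low population of the series, since the parental line was at 10.9 ± 2.38 CPM (SD, n = 3), E2 at 12.7 ± 2.35 and A at 6.04 ± 1.22. The call held under every alternative tried, among which a test against a 2-fold change itself is not counted here or below.

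Outside chromosome 15 the other large decreases were in Vegfc, Nrp1, Syt13 and the histone gene H2ac20. Vegfc, the lymphatic growth factor, was at 2.69, 2.01 and 1.17 CPM in M and 7.08, 5.85 and 6.72 in E1 (-1.72 ± 0.349, adjusted p = 0.00266). Nrp1, neuropilin 1, a co-receptor for semaphorins and VEGF, was at 8.33, 19.8 and 14.4 CPM in M and 33.3, 50.3 and 56.1 in E1 (-1.70 ± 0.428, adjusted p = 0.00266). For both genes every M library lay below every E1 library. The parental line was at 7.52 ± 2.98 CPM for Nrp1, below both clones, and at 9.19 ± 2.61 for Vegfc, above both (SD, n = 3). Syt13, a synaptotagmin, differed by -1.51 ± 0.38 (adjusted p = 0.00883), a call that was lost without E1 replicate 3 (adjusted p = 0.105). The call of H2ac20 was lost without E1 replicate 2, without E1 replicate 3 and with the 6 libraries fitted alone (adjusted p up to 0.176).

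Among 34 tested genes of epithelial junctions and polarity, 5 were lower in M and 1, Cxadr, was higher, with a list median of -0.08. Over all genes tested, 1.46% were called lower. The lower genes were Cdh1, which encodes E-cadherin, the claudin gene Cldn3, and the desmosome genes Dsc2, Dsg2 and Dsp. Cdh1 (chromosome 8, 106603350 to 106670247) was at 31.2, 45.8 and 32.0 CPM in M and 62.9, 58.6 and 60.3 in E1 (-0.73 ± 0.18, adjusted p = 0.0301). Dsg2, a desmosomal cadherin, was at 13.4, 16.9 and 17.0 CPM in M and 26.4, 35.1 and 28.9 in E1 (-0.93 ± 0.165, adjusted p = 0.0014), and Dsc2 differed by -1.32 ± 0.172 (adjusted p = 0.00943). All 5 genes separated the clones without overlap. The call of Cdh1 was lost when any library other than M replicate 2 was left out (adjusted p up to 0.169), that of Cldn3 under 4 of these 6 settings (up to 0.198), and that of Dsc2 without E1 replicate 3 (0.0533), whereas Dsg2 was called under every alternative. The 5 lower calls of the list fell to 3 without E1 replicate 1, to 2 without E1 replicate 2, M replicate 1 or M replicate 3, and to 1 without E1 replicate 3. The higher call remained only without M replicate 2.

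Epcam differed by 0.03 ± 0.164 (adjusted p = 0.959), and the claudins Cldn4 and Cldn7 by -0.10 and 0.21 (adjusted p = 0.842 and 0.762). Of 7 tested keratins on the list used here, the intermediate filaments of epithelia, 0 passed the edgeR test, 2 had an unadjusted p under 0.05 and DESeq2 called 1. In 2 of the 7, Krt14 and Krt80, all M libraries were below all E1 libraries. Krt14, a basal keratin, was at 0.441, 0.27 and 0.162 CPM in M and 1.33, 0.697 and 2.08 in E1 (-2.03 ± 0.543, adjusted p = 0.0963). The clones overlapped for the simple-epithelium keratins: Krt8 was at 75.4, 173 and 128 CPM in M and 72.7, 101 and 113 in E1, and Krt18 differed by 0.05 ± 0.397 (adjusted p = 0.955). Krt80, Cldn4, Cldn7, Cxadr and Dsp were chosen for mention after their values were seen.

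The junction genes on which the lower calls fell can be set beside the E-box CAGGTG, read CACCTG on the other strand, which Snail and ZEB factors bind. The bases just before the start of Cldn3 and Dsp, members of the 5, are shown for this reason (RefSeq, GRCm38.p6, 250 bases ending at the base before the transcript start, plus strand, lower case because no base belongs to a motif match). Cdh1 had no entry in the RefSeq promoter table used, and the windows of Dsc2 and Dsg2 were not examined singly. The Cldn3 window lies at chr5:134985964-134986213 and the Dsp window at chr13:38151044-38151293.
Cldn3: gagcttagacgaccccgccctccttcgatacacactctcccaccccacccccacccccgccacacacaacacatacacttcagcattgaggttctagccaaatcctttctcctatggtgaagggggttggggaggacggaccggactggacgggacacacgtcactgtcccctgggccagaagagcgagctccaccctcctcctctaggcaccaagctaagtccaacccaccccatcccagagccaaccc
Dsp: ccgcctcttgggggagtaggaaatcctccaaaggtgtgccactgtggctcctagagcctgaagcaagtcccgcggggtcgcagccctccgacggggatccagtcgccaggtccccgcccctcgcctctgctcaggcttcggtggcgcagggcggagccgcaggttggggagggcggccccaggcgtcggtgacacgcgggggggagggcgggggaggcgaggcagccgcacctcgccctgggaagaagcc
Neither window holds the motif on either strand. Of 32851 promoter windows of the same length, 5657 hold it (17.2%), as do 1929 of the 12345 windows of tested genes (15.6%). No binding of any factor was measured.

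Of 13 tested transcription factors of the epithelial to mesenchymal transition, Snai2 and Sox4 were higher in M and none was lower (list median 0.18, against 2.43% of all genes called higher). Snai2 (chromosome 16, 14705852 to 14709395), which encodes the repressor Slug, was at 3.31, 4.34 and 4.76 CPM in M and 0.757, 0.186 and 0.504 in E1, a log2 fold change of 2.90 ± 0.524 with an adjusted p of 0.00509. The clones did not overlap, and the parental line was lower still at 0.146 ± 0.131 CPM (SD, n = 3). Zeb2 was at 46.7, 49.5 and 48.4 CPM in M and 35.0, 31.8 and 25.7 in E1 (0.64 ± 0.134, adjusted p = 0.0651) and Twist1 differed by 0.66 ± 0.188 (adjusted p = 0.141). Neither passed the test, although the libraries of the clones did not overlap for either gene. Zeb2 and Twist1 were chosen for mention after their values were seen. Snai1 was at 0.617, 1.2 and 0.162 CPM in M and 1.21, 1.95 and 0.694 in E1 (adjusted p = 0.555), and Zeb1 had too few counts to be tested. Sox4 differed by 0.49 ± 0.126 (adjusted p = 0.0438), a call lost under 7 alternatives.

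Of 12 epithelial regulators (median -0.64), 1 was called, and it was lower, beside 1.46% of all genes called lower. This was Esrp1 (chromosome 4, 11331933 to 11386783), which directs epithelial splicing. It was at 52.4, 44.7 and 47.2 CPM in M and 75.8, 72.5 and 78.1 in E1 (-0.65 ± 0.0739, adjusted p = 0.00684), with no overlap and a call under every alternative. The parental line was lower in Esrp1 than both clones, at 28.4 ± 1.68 CPM (SD, n = 3). Grhl2, a grainyhead factor that maintains epithelial genes, was at 27.8, 26.1 and 32.5 CPM in M and 35.1, 30.3 and 31.9 in E1 (adjusted p = 0.645).

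Of 15 tested mesenchymal genes, 4 were higher in M and none lower, against 2.43% and 1.46% of all genes, with a median of 0.48. They were Pdgfra, the receptor for PDGF-A, at 6.08, 12.1 and 8.94 CPM in M and 4.27, 5.30 and 3.15 in E1 (1.10 ± 0.356, adjusted p = 0.043), the receptor kinase gene Axl (0.55 ± 0.0952, adjusted p = 0.0168), the matrix gene Tnc and the actin-binding Cald1. Vim, which encodes vimentin, was at 212, 546 and 383 CPM in M and 174, 235 and 224 in E1, so that the clones overlapped (0.85 ± 0.421, adjusted p = 0.124). Fn1 overlapped too (0.44 ± 0.249, adjusted p = 0.325). None of the 4 calls remained without E1 replicate 2, without E1 replicate 3 or without M replicate 3, and 2 were made without E1 replicate 1 or without M replicate 2, while 5 genes of the list were called without M replicate 1.

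Of 35 tested TGFb and BMP genes, 5 were higher in M and 0 lower, with a list median of 0.22, where all genes had 2.43% higher and 1.46% lower. Smad3 (chromosome 9, 63646766 to 63757994), the receptor-activated transducer, was at 86.2, 86.1 and 83.7 CPM in M and 37.7, 37.8 and 38.1 in E1. Replicates differed little beside the gap between the clones (log2 fold change 1.17 ± 0.0143, adjusted p = 1.3e-06). Tgfbr3, the co-receptor betaglycan, was at 1.72, 1.89 and 2.85 CPM in M and 0.333, 0.418 and 0.378 in E1 (2.33 ± 0.232, adjusted p = 0.000258). Tgfbr2, the ligand-binding receptor, differed by 0.52 ± 0.0716 (adjusted p = 0.0263), and Ltbp1 and Ltbp3, which store latent TGFb in the matrix, by 0.56 ± 0.0908 and 0.66 ± 0.0958 (adjusted p = 0.0235 and 0.00504). The call of Ltbp1 was lost under 4 settings (adjusted p up to 0.159).

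E1 was the low population for Smad3, which stood at 72.6 ± 1.22 CPM in the parental line (SD, n = 3), 54.4 ± 5.28 in E2 and 158 ± 7.17 in A. Tgfbr3 was at 6.03 ± 1.62 CPM in the parental line, above both M and E1. The ligand Tgfb1, the receptor Tgfbr1, the transducer Smad2 and the inhibitor Smad7 had log2 fold changes of 0.35, 0.23, 0.21 and -0.23, and none passed. These 4 genes and Tgfbr2 were chosen after their values were seen. From 3 to 5 members of the list were called higher when 1 library was left out, and 0 or 1 lower.

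Guidance ligands and receptors were first known from axon pathfinding and are also used by tumour and endothelial cells. Of 26 tested, 8 were higher and 1 lower, against 2.43% and 1.46% of all genes, with a median of 0.39. With 1 library left out the counts were 7 or 8 higher and 1 lower. Slit2, the ligand of Robo receptors, was at 14.5, 6.81 and 12.9 CPM in M and 3.36, 2.09 and 2.65 in E1 (2.04 ± 0.388, adjusted p = 0.000307). Sema7a, a membrane-anchored semaphorin that binds integrins, was at 8.06, 8.85 and 10.3 CPM in M and 3.36, 2.83 and 2.14 in E1 (1.68 ± 0.21, adjusted p = 0.000162). Neither gene overlapped between the clones.

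Further ligands and receptors of this group were also higher in M and were chosen for mention after their values were seen. Plxnd1, a plexin receptor for class 3 semaphorins, was at 15.3, 15.9 and 15.1 CPM in M and 8.14, 4.37 and 3.00 in E1 (1.56 ± 0.415, adjusted p = 0.00148). Neo1, neogenin, the receptor of netrins and repulsive guidance molecules, was at 187, 179 and 202 CPM in M and 114, 113 and 114 in E1 (0.74 ± 0.0515, adjusted p = 0.00184). Sema4b rose by 1.06 ± 0.138 and Sema3f by 0.66 ± 0.18 on the log2 scale. Sema6d and Sema3b, at 4.66 and 1.30 CPM in M against 0.399 and 0.0932 in E1, had log2 fold changes of 3.40 and 3.08. The co-receptor Nrp1 was the gene called lower in M than in E1, and its relative Nrp2 differed by 0.17 (adjusted p = 0.578).

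Of 52 tested growth factor and receptor genes, 4 were higher and 2 lower, against 2.43% and 1.46% of all genes (median 0.11). Kitl, the ligand of the Kit receptor, was at 120, 116 and 138 CPM in M and 64.6, 65.4 and 51 in E1 (1.04 ± 0.139, adjusted p = 0.00836). Igf1r, the IGF1 receptor, and Epha4, an ephrin receptor, were also higher, by 0.70 and 1.37, though Epha4 overlapped between the clones. Igf1r and Epha4 were chosen after their values were seen. Erbb3, the neuregulin receptor, was at 3.57, 4.66 and 3.21 CPM in M and 6.17, 9.66 and 8.51 in E1 (-1.07 ± 0.247, adjusted p = 0.0277), a call lost under 4 settings that left out a library (adjusted p up to 0.154). The higher calls of the list fell to 1 without E1 replicate 2, to 0 without E1 replicate 3, where Kitl had an adjusted p of 0.0588, and to 2 without M replicate 3. The lower calls ranged from 1 to 3 with 1 library left out.

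In the matrix, Spp1 showed the largest called difference of the laminin and matrix glycoprotein list. In that list 3 of 28 tested genes were higher and 1 lower (median 0.09), against 2.43% and 1.46% of all genes. Spp1, which encodes osteopontin, was at 92.6, 105 and 126 CPM in M and 38.4, 39.2 and 32.1 in E1 (1.56 ± 0.157, adjusted p = 0.000192). The parental line was at 116 ± 31.2 CPM, E2 at 42.2 ± 15.2 and A, the highest population, at 1373 ± 125 (SD, n = 3 each). Igfbp4, an IGF-binding protein, differed by 0.86 ± 0.0804 (adjusted p = 0.00231), and Fbln2, a fibulin, by 0.84 ± 0.188. Ccn2, a matricellular protein and YAP target, was at 24.9, 56.9 and 43.3 CPM in M and 86.7, 81.2 and 84.6 in E1 (-1.01 ± 0.352, adjusted p = 0.0263), and 6 alternatives ended its call. Parental cells held 17.9 ± 4.71 CPM of Ccn2 (SD, n = 3), below both clones. Without M replicate 2 the list held 3 higher and 5 lower genes, and 0 were lower without E1 replicate 2, E1 replicate 3, M replicate 1 or M replicate 3. Fbln2 was chosen after its values were seen.

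Collagen chains were called higher for Col18a1 and Col7a1 out of 15 tested (median 0.19), and 0 were lower. Without M replicate 2 the collagen list held 2 higher and 2 lower genes. Beside the lists of this paragraph, 2.43% of all genes were higher and 1.46% lower. Col7a1, the anchoring fibril collagen, was at 83.2, 96.5 and 80.9 CPM in M and 44.0, 56.7 and 49.0 in E1 (0.80 ± 0.132, adjusted p = 0.00581). Of 20 integrin subunits, Itga6 and Itgb2 were higher and none was lower (median 0.34), and both calls were lost under 5 settings. Timp2 and Adam9 were higher among 28 metalloproteases and their inhibitors, by 0.64 ± 0.0949 and 0.68 ± 0.169 (adjusted p = 0.0135 and 0.00981), while Adamts4, at 0.516 and 2.42 CPM in M and E1 and chosen after its values were seen, was lower. Without M replicate 3 none of the 3 was called, Timp2 was also lost without E1 replicate 2 (adjusted p up to 0.104) and Adam9 without E1 replicate 3 (up to 0.061). Thbs1, thrombospondin 1, overlapped between the clones at 275, 498 and 449 CPM in M and 493, 504 and 592 in E1 (adjusted p = 0.33).

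The decreases were concentrated on chromosome 15. It carried 62 of the 186 genes called lower in M (33.3%) but 486 of the 12712 tested (3.82%), and 2 of the 309 called higher (0.647%). Of the 25 lower genes with the smallest p, 22 lay there. Within it, a segment from 50 to 76 Mb (GRCm38), whose bounds were set with earlier results of these data known, held 79 tested genes, of which 29 were lower (36.7%) and 0 higher, with a median log2 fold change of -0.60. All 3 M libraries lay below all 3 E1 libraries for 41 of the 79 (51.9%), against 10.6% of all genes tested. Of the 45 genes with a mean of at least 5 CPM, 24 were lower and the median was -0.76. When 1 library was left out, 22 to 28 of the 79 were called lower. Elsewhere in the genome 124 of 12226 genes were lower (1.01%).

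The shift was uneven along the chromosome. In windows of 5 Mb the median was -0.19 from 50 to 55 Mb and -1.04 from 55 to 60 Mb, where 16 of 26 genes were lower. It was -0.69, -1.10 and -0.64 in the next 3 windows, -0.37 from 75 to 80 Mb and -0.09 from 80 to 85 Mb. The window from 55 to 60 Mb had the lowest median of all 390 windows with at least 10 tested genes in the genome, and the lowest median off chromosome 15 was -0.54. A second run from 77 to 80 Mb, chosen after its values were seen, held 15 lower genes of 50 (median -0.72), and the genes between, from 76 to 77 Mb, 2 of 44 (median -0.21). Genes below 50 Mb had 11 of 100 lower and a median of -0.22, and those from 80 Mb on 5 of 213 and -0.04. All M libraries lay below all E1 libraries for 31 of the 100 and 23 of the 213, against 10.6% of all genes.

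**Figure D3:**
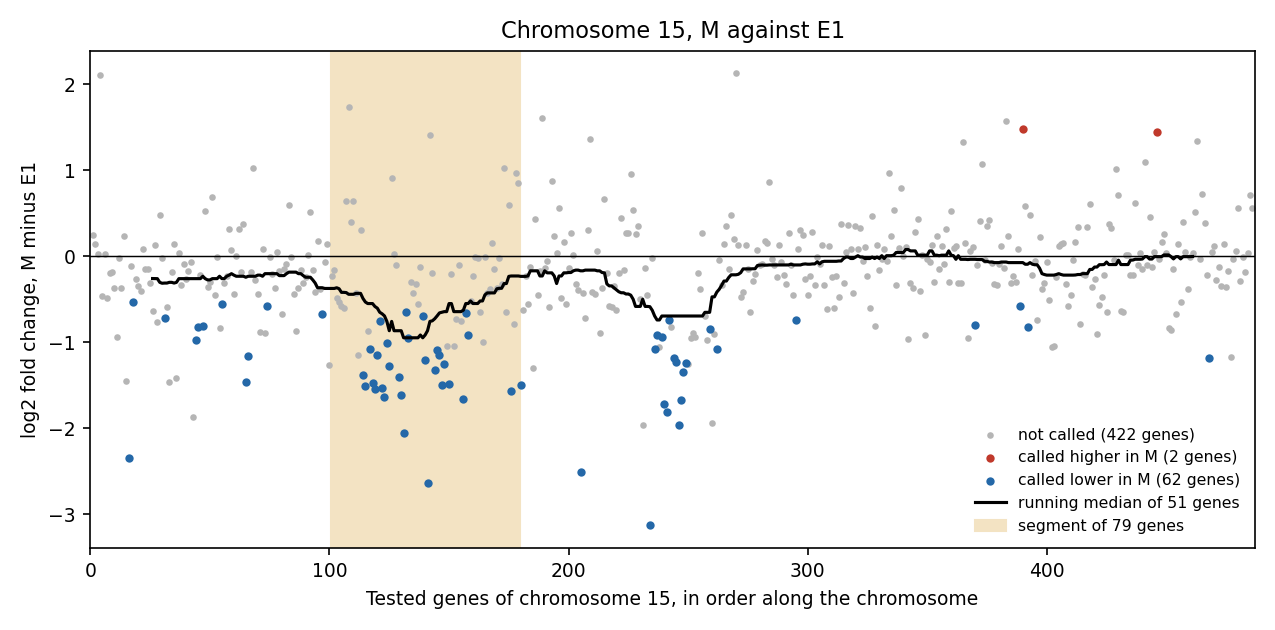
Log2 fold changes, M minus E1, of the 486 tested genes of chromosome 15 in their order along the chromosome. Blue points were called lower and red points higher in M, the black line is the running median of 51 genes, and the shaded band holds the 79 genes of the 50 to 76 Mb segment. The line dips inside the band and again beyond it, in the run from 77 to 80 Mb.

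The segment's genes serve unrelated functions. Atad2 (58094044 to 58135525), a bromodomain ATPase of chromatin, was at 76.2, 83.7 and 69.2 CPM in M and 196, 237 and 231 in E1 (-1.54 ± 0.117, adjusted p = 4.62e-08). Ndufb9 (58933801 to 58939516), a subunit of respiratory complex I, was at 7.89, 4.66 and 4.89 CPM in M and 22.9, 26.6 and 22.7 in E1 (-2.05 ± 0.251, adjusted p = 3.14e-07). Ndrg1, a stress-responsive gene counted here in the hypoxia list, was at 42.8, 42.4 and 49.2 CPM in M and 112, 118 and 146 in E1 (-1.48 ± 0.136, adjusted p = 1.39e-06). These 3 genes did not overlap between the clones and were called under every alternative.

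Myc (61985341 to 61990361), the oncogene of the segment, was at 101, 92.5 and 90.6 CPM in M and 175, 144 and 139 in E1. Its log2 fold change was smaller, -0.69 ± 0.112 (adjusted p = 0.00485), and without E1 replicate 1 it missed the threshold (adjusted p = 0.0505). Its neighbour Pvt1, a long noncoding RNA gene, was at 11.4, 6.59 and 7.51 CPM in M and 20.7, 22.2 and 15.8 in E1 (-1.20 ± 0.278). Others of the segment were Fam91a1 at 140, 126 and 147 CPM in M and 328, 344 and 330 in E1, Efr3a at 116, 95.5 and 106 against 226, 255 and 225, and Ptk2, which encodes focal adhesion kinase, at 35.3, 42.6 and 34.7 against 67.2, 71.8 and 73.6. Pvt1, Fam91a1, Efr3a and Ptk2 were chosen after their values were seen. Rnf139 and Tatdn1, both lower, overlap each other in the annotation, and the strand setting of the counting is not given in the sources used here, so reads of overlapping genes cannot be told apart.

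In the run from 77 to 80 Mb, Gcat, a mitochondrial enzyme of threonine breakdown, was at 2.16, 8.46 and 4.70 CPM in M and 18.2, 23.8 and 19.1 in E1 (-1.96 ± 0.573, adjusted p = 0.00256). Ankrd54 and Pdxp were also among the 15 largest decreases, and the call of Pdxp was lost without M replicate 3 and with the 6 libraries fitted alone. Eif3l, a translation initiation subunit, was at 26.1, 29.9 and 28.9 CPM in M and 70.9, 73.6 and 71.1 in E1 (-1.34 ± 0.0617, adjusted p = 1.6e-06). Lgals1, galectin 1, was at 78.8, 81.3 and 70.0 CPM in M and 121, 112 and 152 in E1. Eif3l and Lgals1 were chosen after their values were seen.

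Summed over its 79 genes, the segment gave 1544, 1603 and 1639 CPM in M and 2754, 2962 and 2936 in E1. Clone A was as low as M, at 1485 to 1570 CPM, E2 was at 2730 to 2962, and the parental line at 3268 to 3625. Over the 47 genes of at least 5 CPM in E1, the median ratio to the E1 mean was 0.514, 0.54 and 0.586 in the M libraries. M replicate 2 thus lay with the other M libraries here. From 80 Mb on, the same ratio was 0.92 to 0.959 in M. DNA copy number was not measured, and whether it moved with the RNA was not tested.

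**Figure D4:**
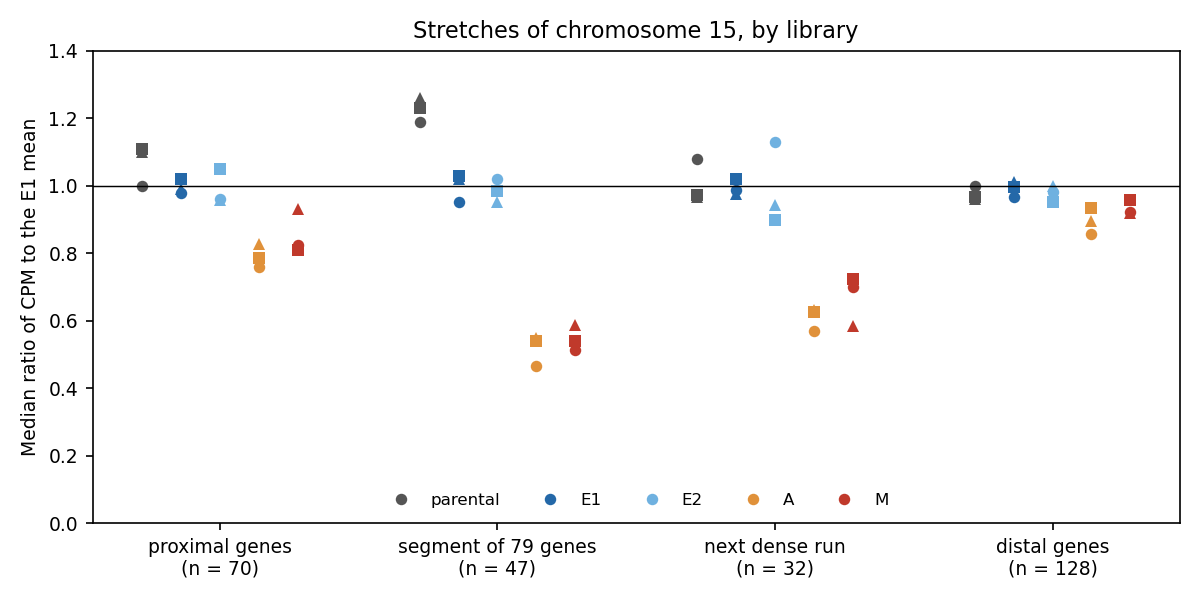
Median ratio of CPM to the E1 mean in each library, over genes with at least 5 CPM in E1, for 4 stretches of chromosome 15. The stretches are below 50 Mb (70 genes), 50 to 76 Mb (47 of the 79 genes), 77 to 80 Mb (32 genes) and from 80 Mb (128 genes). Circles, squares and triangles are replicates 1, 2 and 3. In the segment the M libraries lie at 0.514 to 0.586 and the A libraries at 0.467 to 0.548, apart from E1, E2 and the parental line.

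Several calls in functional groups came from this chromosome. Ndufb9 was the 1 gene called among 73 nuclear-encoded respiratory chain genes (median -0.07), beside 1.46% of all genes called lower. Sqle, an epoxidase of cholesterol synthesis, was 1 of 2 among 27 cholesterol genes, Ndrg1 was 1 of 2 among 24 hypoxia genes, and Cdc42ep1, a Cdc42 effector, was 1 of 2 lower among 38 actomyosin genes. All 4 lie between 50 and 80 Mb, as does Myc, 1 of 4 lower genes in the cell cycle list. Without the genes of that stretch, the lower calls were 0 of 71 respiratory chain, 1 of 26 cholesterol, 1 of 23 hypoxia, 1 of 36 actomyosin and 3 of 45 cell cycle genes.

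Higher genes were spread more widely, with chromosomes 6, 7 and 9 together holding 118 of the 309 (38.2%) but 17.5% of the genes tested. Chromosome 9 had 51 higher and 4 lower genes of 718, a median of 0.21, chromosome 6 had 34 and 1 of 589, and chromosome 7 had 33 and 3 of 922, both with a median of 0.17. These chromosomes were chosen after their values were seen. Others had like shares: 4.31% of genes were higher on chromosome 13 (median 0.10) and 3.56% on chromosome 16 (median 0.18), against 3.58% on chromosome 7. Without E1 replicate 2, E1 replicate 3 or M replicate 3 the higher genes fell to 23, 28 and 22 on chromosome 9, to 10, 13 and 14 on chromosome 6 and to 16 each on chromosome 7. Chromosome 6 had 18 without E1 replicate 1, and chromosome 9 had 34 without M replicate 1. Without M replicate 2, chromosome 9 had 69 higher and 14 lower genes and chromosome 6 had 39 and 7. Chromosome 7 then had 46 and 14. Higher genes described here include Smad3, Tgfbr2, Neo1, Sema7a, Sema3f, Sema3b, Col7a1, Plet1 and the checkpoint gene Nt5e on chromosome 9. They also include Loxl3, Plxnd1, Creb3l2, Ccnd2, Cald1 and Pdia4 on 6. On 7 they include Adamtsl3, Axl, Ccnd1, Igf1r, Spn, Fosb and the checkpoint gene Nectin2. A stretch of chromosome 9 from 54 to 89 Mb, taken with earlier results known, held 23 higher genes of 213 (10.8%) with a median of 0.24. That count fell to 10 without E1 replicate 2, 12 without E1 replicate 3 and 13 without either M replicate 1 or M replicate 3, and was 28 without M replicate 2. Lower genes in this stretch numbered 2 in all and 7 without M replicate 2. On distal chromosome 14, from 60 Mb, 12 of 159 genes were higher and 1 lower (median 0.16).

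Of 46 tested cell cycle genes, 2 were higher and 4 lower, against 2.43% and 1.46% of all genes, with a median of -0.48. The higher genes were the D-type cyclins that start the cycle. Ccnd1 was at 888, 885 and 703 CPM in M and 478, 468 and 422 in E1 (0.86 ± 0.125, adjusted p = 0.000325), and Ccnd2 at 371, 290 and 352 CPM in M and 233, 168 and 161 in E1 (0.85 ± 0.201, adjusted p = 0.00148). Neither overlapped, and both were called under every alternative. The lower genes were Myc, Cdk1, Rrm2 and Ccna2, a cyclin of the S and G2 phases that was at 24.1, 61.3 and 41.1 CPM in M and 74.6, 99.4 and 81.0 in E1 (-1.01 ± 0.409, adjusted p = 0.0231).

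The lower calls of this list turned on M replicate 2. Relative to the mean of the 6 libraries, the median of the 46 genes was -0.40, 0.30 and -0.44 on the log2 scale in M replicates 1, 2 and 3, and 0.14, 0.36 and 0.29 in E1. Without M replicate 2, 23 of the 46 genes were lower, and without E1 replicate 2, E1 replicate 3 or M replicate 3, 1 was. Leaving out E1 replicate 1 or M replicate 1 gave 2.

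The same library also changed the counts of the histone, cholesterol and glycolysis lists. With all libraries, 1.46% of all genes were called lower. The 17 replication-dependent histone genes had medians of -0.79, 0.65 and -0.95 in the M libraries and 0.17, 0.57 and 0.67 in E1, with 2 lower genes in all and 12 without M replicate 2. Cholesterol genes had medians of -0.58, 0.27 and -0.36 in M and -0.17, 0.51 and 0.35 in E1, with 2 lower genes of 27 in all and 10 without it. For example, the sterol sensor partner Insig1 was at 20.5, 73.7 and 34.9 CPM in M and 32.1, 69.3 and 47.0 in E1 (adjusted p = 0.876), and Hmgcs1, the synthase that starts the pathway, differed by 0.02 (adjusted p = 0.977). Glycolysis genes numbered 2 lower of 22, Pgk1 and Ldha, and 8 without M replicate 2. With any other single library left out, the lower calls were 0 or 1 for histones, 1 to 3 for cholesterol and 1 to 4 for glycolysis genes. Histone values are uncertain because the genes are near-identical copies.

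**Figure D5:**
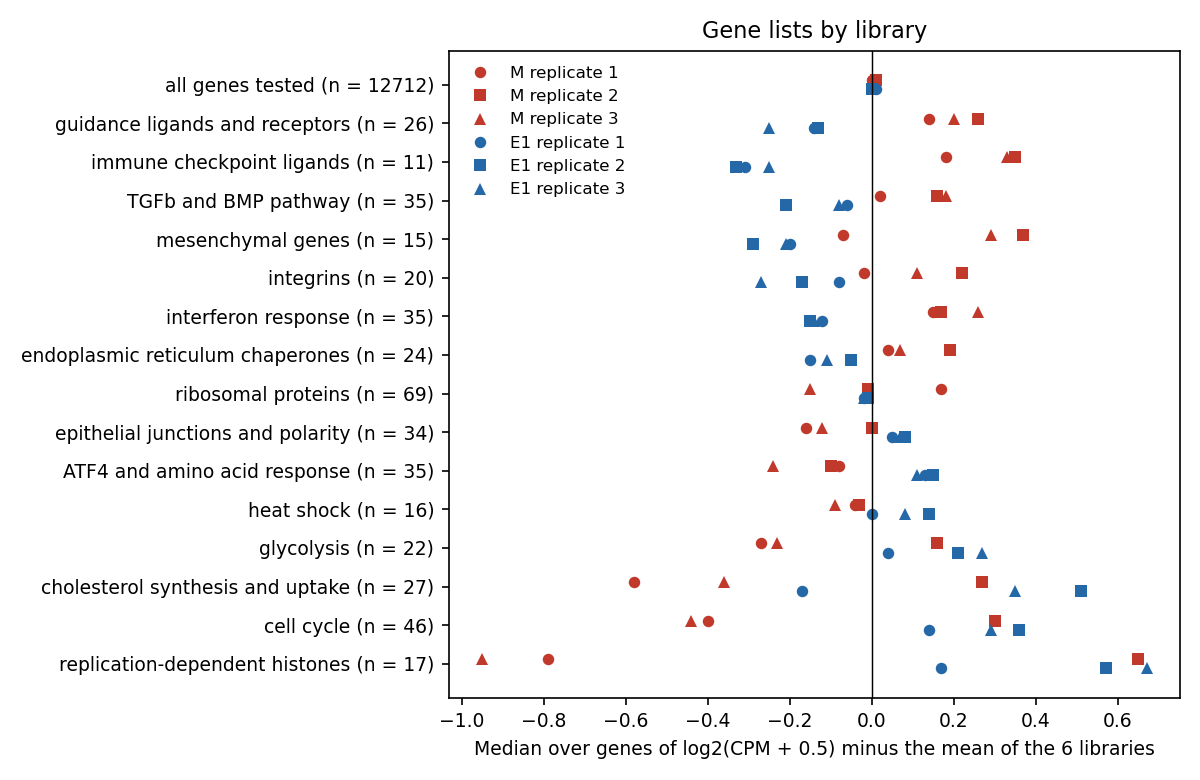
For 15 gene lists and for all genes tested, each symbol is the median over the genes of 1 library, as log2(CPM + 0.5) minus the mean of the 6 libraries. Red is M and blue E1, and circles, squares and triangles are replicates 1, 2 and 3. In the glycolysis, cholesterol, cell cycle and histone lists the square of M replicate 2 lies among the E1 libraries, while in the guidance list all M libraries (0.14 to 0.26) lie above all E1 libraries (-0.25 to -0.13).

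Of 35 ATF4 and amino acid response genes, 4 were lower and none higher in M, against 1.46% and 2.43% of all genes (median -0.32). They were Psat1, an enzyme of serine synthesis, at 281, 351 and 332 CPM in M and 399, 540 and 509 in E1 (-0.59 ± 0.165, adjusted p = 0.025), the cystine transporter gene Slc7a11, the amino acid transporter gene Slc38a2 and Ddit4, an mTORC1 inhibitor. Ddit4 was at 13, 17.4 and 15 CPM in M and 25.9, 26.8 and 32.9 in E1 (-0.91 ± 0.16, adjusted p = 0.00222), and its call held under every alternative, whereas those of Psat1 and Slc7a11 were each lost under 4 settings. The list kept 1 lower call without E1 replicate 2 or E1 replicate 3 and 2 without M replicate 3. Slc38a2 was chosen after its values were seen.

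Among 24 chaperone genes of the endoplasmic reticulum, 3 were higher and 1 lower (median 0.20), against 2.43% and 1.46% of all genes. Hspa5, which encodes the main chaperone BiP, was at 268, 236 and 255 CPM in M and 509, 418 and 430 in E1 (-0.84 ± 0.104, adjusted p = 0.000574). Pdia4, a disulfide isomerase, was at 25, 27.2 and 23.1 CPM in M and 13.5, 15.8 and 16.8 in E1 (0.71 ± 0.117, adjusted p = 0.0204), and Dnajc3, a BiP cofactor, differed by 0.68 ± 0.101 (adjusted p = 0.00918). None of these genes overlapped between the clones. Hspa5 was called lower whichever library was left out, but the 3 higher calls were all lost without E1 replicate 2 or E1 replicate 3, and 5 genes were called higher without M replicate 2. Of 16 heat shock genes, Hspa4l and Hspb8 were lower and none was higher. Their calls were lost under 3 and 4 settings (adjusted p up to 0.124 and 0.126), and without M replicate 3 neither was called. The edgeR test called 0 of 69 ribosomal protein genes (median 0.05), 0 of 15 mitochondrially encoded genes (0.12), 0 of 22 fatty acid synthesis genes and 0 of 23 genes of class I antigen presentation. At an unadjusted p under 0.05 these lists held 5, 0, 5 and 3 genes, and DESeq2 called 0, 0, 0 and 1.

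Bcl2 family genes held 3 higher of 14 tested and none lower, against 2.43% and 1.46% of all genes. Bcl2, which blocks apoptosis, was at 56.3, 66.9 and 66.2 CPM in M and 37.2, 32.8 and 35.1 in E1 (0.85 ± 0.0961, adjusted p = 0.000917). The other survival gene Bcl2l1 was higher by 0.67 ± 0.127 (adjusted p = 0.0232), and so was Bcl2l11, which encodes the death-promoting Bim, by 0.80 ± 0.248 (adjusted p = 0.0441). The call of Bcl2 held under every alternative, that of Bcl2l1 was lost without E1 replicate 2 or E1 replicate 3 and that of Bcl2l11 under 5 settings.

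Surface and secreted genes with roles in immune recognition differed in both directions. Of 11 tested checkpoint ligands, 3 were higher and none lower (median 0.69), against 2.43% and 1.46% of all genes. All 11 had a log2 fold change above 0. Nt5e, the ectoenzyme CD73, was at 70.2, 79.4 and 82.6 CPM in M and 41.1, 38.3 and 46.2 in E1 (0.88 ± 0.105, adjusted p = 0.00054). Cd47, the "do not eat me" signal, was at 102, 108 and 114 CPM in M and 69.2, 67.1 and 61.9 in E1 (0.71 ± 0.0652, adjusted p = 0.00331). Nectin2, a ligand of Tigit, differed by 1.03 ± 0.268 (adjusted p = 0.00356). These 3 genes kept the clones apart and their calls under every alternative, while Cd274, which encodes PD-L1, was at 2.56, 2.21 and 2.17 CPM in M and 1.51, 1.11 and 0.788 in E1 and did not pass (adjusted p = 0.26).

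Of 40 tested cytokine and chemokine genes, 1 was higher and 4 lower, against 2.43% and 1.46% of all genes. The lower calls fell to 1 without E1 replicate 2, M replicate 1 or M replicate 3 and to 2 without E1 replicate 3, and the higher call remained only without E1 replicate 1. Cxcl16, a membrane-bound chemokine, was at 22.2, 24.2 and 22.1 CPM in M and 35.8, 46.7 and 38.4 in E1 (-0.82 ± 0.122, adjusted p = 0.00575), and without E1 replicate 2 it missed the threshold (adjusted p = 0.0632). Ccl20, a chemokine for Ccr6, was at 0.264, 0.956 and 0.194 CPM in M and 3.24, 3.48 and 3.37 in E1 (-2.62 ± 0.606, adjusted p = 0.0107). Ccl2 had 0 counts in M and 26 in E1, at least 11.3-fold lower when M is set to a floor of 3 counts over its libraries. The opposite was seen for Serpina3g, a serpin with 84 counts in M and 0 in E1, at least 25-fold higher. Ccl20, Ccl2 and Serpina3g were chosen after their values were seen, and such floors cover counting error only. Interferon response genes were called once in 35, near the 2.43% of all genes called higher, for Ifi27 (1.26 ± 0.106, adjusted p = 0.0184, chosen after its values were seen), with a list median of 0.41. With 1 library left out, 0 to 3 were called, the highest count being without M replicate 2. Of 20 Notch genes 1 was called, Nrarp, at 15.9, 9.71 and 10.3 CPM in M and 5.36, 6.55 and 7.32 in E1 (0.89 ± 0.259, adjusted p = 0.0248, lost under 5 settings), and Notch1 did not pass (adjusted p = 0.379).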

How the data were processed

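RNA of 3 M, 3 E1, 3 E2, 3 A and 3 parental cultures was sequenced from directional libraries, per the labels. The authors deposited raw counts per gene. HISAT2, featureCounts, GRCm38 and mm10 are named in the submitters' processing notes. Tool versions and the strand setting are not given in the sources used here. Deposited normalized and test tables were not used here. Of 27179 identifiers, 25275 were named by RefSeq and 18 by GENCODE.

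Counts were fitted with R 4.3.3 and edgeR 4.0.16: filterByExpr (minimum count 10, minimum total 15, 12712 genes kept), TMM factors (0.847 to 1.11), and a robust quasi-likelihood fit of all 15 libraries with population as the only term, contrast M minus E1. The common dispersion was 0.0651. Calls required a Benjamini-Hochberg adjusted p below 0.05 over all genes tested. Log2 fold changes used a prior count of 2, and each SE was derived from the replicate SDs of log2 CPM. The code was tested on simulated counts.

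Members, lists, chromosome bounds and tests were chosen with earlier results of these data known. Named genes have at least 5 CPM in the higher clone, a call and libraries that do not overlap: the 15 genes furthest up and the 15 furthest down, and the 3 largest per list, plus 20 key genes whatever their values. Lists are described by counts and medians, without a test. A result for 1 key gene is not reported here. CPM totals include the 6 genes with the most counts. Genes in near-identical copies (histones, ribosomal proteins, H2 genes) share reads and are uncertain. In bulk RNA, fewer cells of a type and less RNA per cell cannot be told apart. Alternatives were DESeq2 1.42.0, RLE and upper quartile factors, other filters, glmTreat, a covariate, a replicate block, the 6 libraries alone and each library left out.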

Additional observations from a re-analysis of the deposited data

How the results depend on the processing

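The number of genes called was 495, and 817 with no filter and 781 with the share of the top gene as a covariate. Leaving out 1 library gave 210 to 824 genes called, 130 to 395 higher, 78 to 429 lower, 140 to 431 with at least a 2-fold change and 3753 to 4888 whose libraries did not overlap, since fewer libraries overlap less easily. Lower genes numbered 186, against 295 with DESeq2, 365 with no filter and 319 with the covariate. Testing against a 2-fold change itself (glmTreat) left 16 of the 230 genes. The median of the 50 to 76 Mb segment of chromosome 15 was -0.60, and -0.76 for genes with a mean of at least 5 CPM. Its 29 lower calls stayed within 1.5 times under every alternative. RLE and upper quartile factors gave 499 and 534 calls, and leaving out the 6 genes with the most counts 490. Of 87 named genes with a call, 46 were called under every alternative other than glmTreat, 41 lost the call under at least 1, and 0 changed direction.

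Replicate numbers are shared by M and E1. The deviations of same-numbered libraries from their clone's mean correlated at 0.086, 0.05 and 0.029, and those of differently numbered libraries at -0.096 to 0.044. Each M library had its highest value with the E1 library of its own number. The identifier with the most counts also had its highest share in replicate 1 of all 5 populations (39.3% to 49.3%). All correlations were small, and the main fit did not pair the libraries. With a replicate block 731 genes were called, 321 of them lower, and 490 of the 495 were among them in the same direction. Whether the added calls reflect pairing was not tested.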
